A study of Mus musculus with 12 samples.

Results

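The heat shock, DnaJ and CCT chaperones are the proteins that fold, refold and hold other proteins in the cell. The genes were chosen by name: every identifier of the expression table whose mouse symbol begins with Hsp or Dnaj, or is *Tcp1* or Cct followed by 2 to 8, with pseudogenes left out. This gave 71 of 15651 identifiers, made up of 22 Hsp genes, 41 Dnaj genes and 8 CCT genes. 14 further annotated genes of these names were not analysed here, among them *Hspb1*, *Hspa14* and *Cct6b*. All 71 passed the filter, a group mean of at least 1 TPM. TPM is the share of transcripts corrected for gene length and scaled to a fixed total. Low genes had been left out before deposit, so this does not show whether a chaperone was lost to low values.

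HSP70 proteins grip unfolded stretches of a client and cycle with ATP, J-domain (DnaJ) proteins bring the client and start that cycle, and HSP110 proteins release the nucleotide. HSP90 finishes clients such as kinases, and the chaperonins, CCT in the cytosol and HSP60 with HSP10 in mitochondria, fold proteins inside a closed ring. Actin and tubulin are the best known clients of CCT. Mutant FLT3 kinase is a known HSP90 client in acute myeloid leukemia (AML).

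RNA was measured in leukemic splenocytes that had been enriched for c-Kit, from moribund mice of 2 genotypes that both carry *Flt3* ITD/ITD and Mx1Cre. *D/F* mice are *Dnmt3a* fl/fl and *T/F* mice are *Tet2* fl/fl, and there were 3 mice of each. Cells of each mouse were split and kept for 6 hours with DMSO or with CCS1477 (inobrodib), which binds the bromodomains of the acetyltransferases p300 and CBP, at 4 µM in *D/F* cells and 2 µM in *T/F* cells, in medium with SCF, IL6 and IL3. This gave 12 libraries in 4 groups of 3. Genotype and dose cannot be told apart. Mx1Cre was not induced by injection in these mice and is described by the study as leaky, so that 1 or both floxed alleles may be lost in a given cell. The floxed genes were still listed in their own knockout cells, *Dnmt3a* at 39.4 ± 14.3 TPM in *D/F* cells and *Tet2* at 33.4 ± 3.03 TPM in *T/F* cells (DMSO, SD, n = 3), and a gene total does not show whether the floxed exons were present.

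Libraries summed to between 914204 and 931697 TPM, read numbers per gene were not given, and no value carries a counting interval. TPM is a share of the RNA pool, so a fall means a smaller share and not necessarily fewer molecules per cell, and in bulk RNA fewer cells of a type and less RNA per cell cannot be told apart. *Kit* itself was between 50.5 and 149 TPM with DMSO and between 22.8 and 54.9 TPM with CCS1477. All 11 progenitor and granule markers were present, and their summed level was 4299 to 10640 TPM (*D/F*) and 4675 to 6901 TPM (*T/F*) with DMSO against 977 to 4469 and 1918 to 3258 TPM with CCS1477. The 8 mature neutrophil markers, all present, summed to 1669 to 9446 TPM over all libraries. The 5 macrophage markers summed to 19.7 to 37.3 TPM with DMSO and 2.84 to 12.8 TPM with CCS1477. The 5 mast cell markers went from 103 to 196 TPM down to 21.0 to 49.3 TPM (*D/F*) and from 50.05 to 88.1 TPM down to 22.4 to 41.4 TPM (*T/F*), and the 5 megakaryocyte markers from 39.4 to 222 TPM down to 27.2 to 72.8 TPM and from 54.0 to 61.2 TPM down to 38.6 to 40.8 TPM. The 8 erythroid markers summed to 11.4 to 45.4 TPM over all libraries. Sums over the 3 T cell and the 3 B cell markers in the table stayed at or below 25.7 TPM, and *Cd3e* was not analysed here. The part of these shifts in the chaperone results was not tested.

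Mouse 2 of *D/F* stood apart. Its log2 values correlated with those of the other *D/F* mice at r = 0.947 to 0.958, against 0.979 and 0.983 between mice 1 and 3. Its neutrophil markers summed to 2720 TPM with DMSO against 9446 and 6303 TPM in mice 1 and 3. Its megakaryocyte markers were higher (222 against 39.4 and 53.7 TPM), as were its erythroid (45.4 against 14.7 and 18.4 TPM) and mast cell markers (196 against 121 and 103 TPM). Its Hsp genes summed to 6374 TPM with DMSO against 10372 and 11244 TPM. *D/F* results are therefore given with and without it where it matters.

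By class, the summed TPM of the CCT, Hsp and Dnaj genes was each lower with CCS1477 in every mouse, and the Dnaj sum changed least. A sum weighs the most abundant genes most, and the Hsp genes did not all fall. The CCT genes summed to 2521, 1941 and 2895 TPM in *D/F* mice 1, 2 and 3 with DMSO and to 1816, 1288 and 2150 TPM with CCS1477. In *T/F* they summed to 2716, 2658 and 2661 TPM with DMSO and to 1922, 1973 and 1901 TPM with CCS1477. The ratio of treated to DMSO cells of the same mouse was 0.709 ± 0.041 in *D/F* cells and 0.722 ± 0.018 in *T/F* cells (SD, n = 3). For the Hsp genes it was 0.815 ± 0.035 and 0.734 ± 0.012, and for the Dnaj genes 0.918 ± 0.037 and 0.921 ± 0.013. The *T/F* groups did not overlap for any of these sums, and the CCT and Hsp sums of *D/F* did, with the mice at different levels in DMSO.

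**Figure D1:**
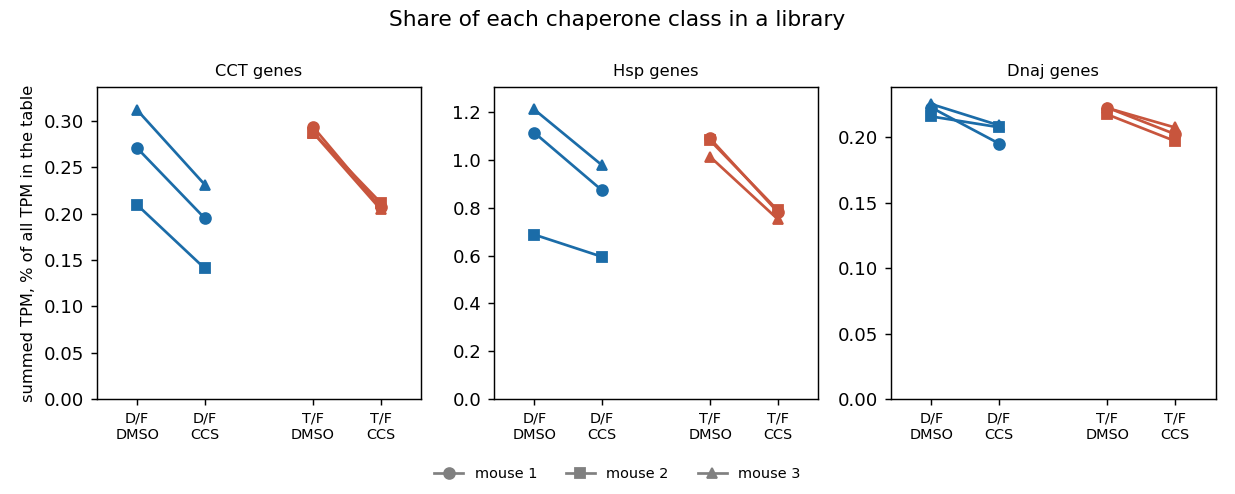
Summed TPM of the CCT, Hsp and Dnaj genes as a percent of all TPM in the table (y axis, from 0), for each of the 12 libraries, with lines joining DMSO and CCS1477 cells of 1 mouse. Every line falls, and the CCT share goes from 0.29% to 0.21% in *T/F*, while *D/F* mouse 2 (squares) starts lowest in CCT and Hsp.

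Of the 71 chaperones, 6 changed in *D/F* cells and 38 in *T/F* cells at an adjusted p under 0.05 (limma on log2(TPM + 1), Benjamini-Hochberg over all genes tested, 3 against 3). In *D/F* 3 rose and 3 fell, where 11.6% of all genes were called, 5.14% higher and 6.51% lower. In *T/F* 10 rose and 28 fell, where 43.4% of all genes were called, 25.8% higher and 17.6% lower. With the mouse as a block, which the design allows since both arms come from the same animal, the *D/F* count was 29 (10 higher, 19 lower) where 39.3% of all genes were called (21.4% higher, 18% lower), and the *T/F* count was 43 (15 higher, 28 lower) where 54.1% were (31.2% and 22.9%). Over both genotypes, 14 rose and 20 fell where 45.3% of all genes were called (25.8% higher, 19.6% lower), and with the block 20 rose and 29 fell where 60.3% were (34.5% and 25.9%). Without *D/F* mouse 2 the *D/F* count was 13, where 24.6% of all genes were called, and over both genotypes it was 43 (55.4%). Without mouse 1, or without mouse 3, no gene of the table passed in *D/F*. Without *T/F* mouse 1 the *T/F* count was 21, where 22.8% of all genes were called, and without mouse 2 it was 20 (20.9%).

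Among chaperones with a mean of at least 100 TPM, 15 of 21 fell in *T/F* and none rose, and in *D/F* none passed without the block (4 had an unadjusted p under 0.05) while 11 fell with it, as did 22.7% of all genes at that level. In *T/F*, 23.6% of all genes at that level fell and 21.4% rose. Of the 50 chaperones below it, 10 rose and 13 fell in *T/F*, where 26.3% and 16.9% of all such genes did. Treated and DMSO libraries did not overlap for 12 chaperones higher and 10 lower in *D/F* cells (19.9% and 16.7% of all genes) and for 16 higher and 31 lower in *T/F* cells (33.5% and 22.6%). In all, 27 chaperones were lower in all 6 mice and 16 were higher in all 6, where 24.2% and 31.8% of all genes tested were.

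**Figure D2:**
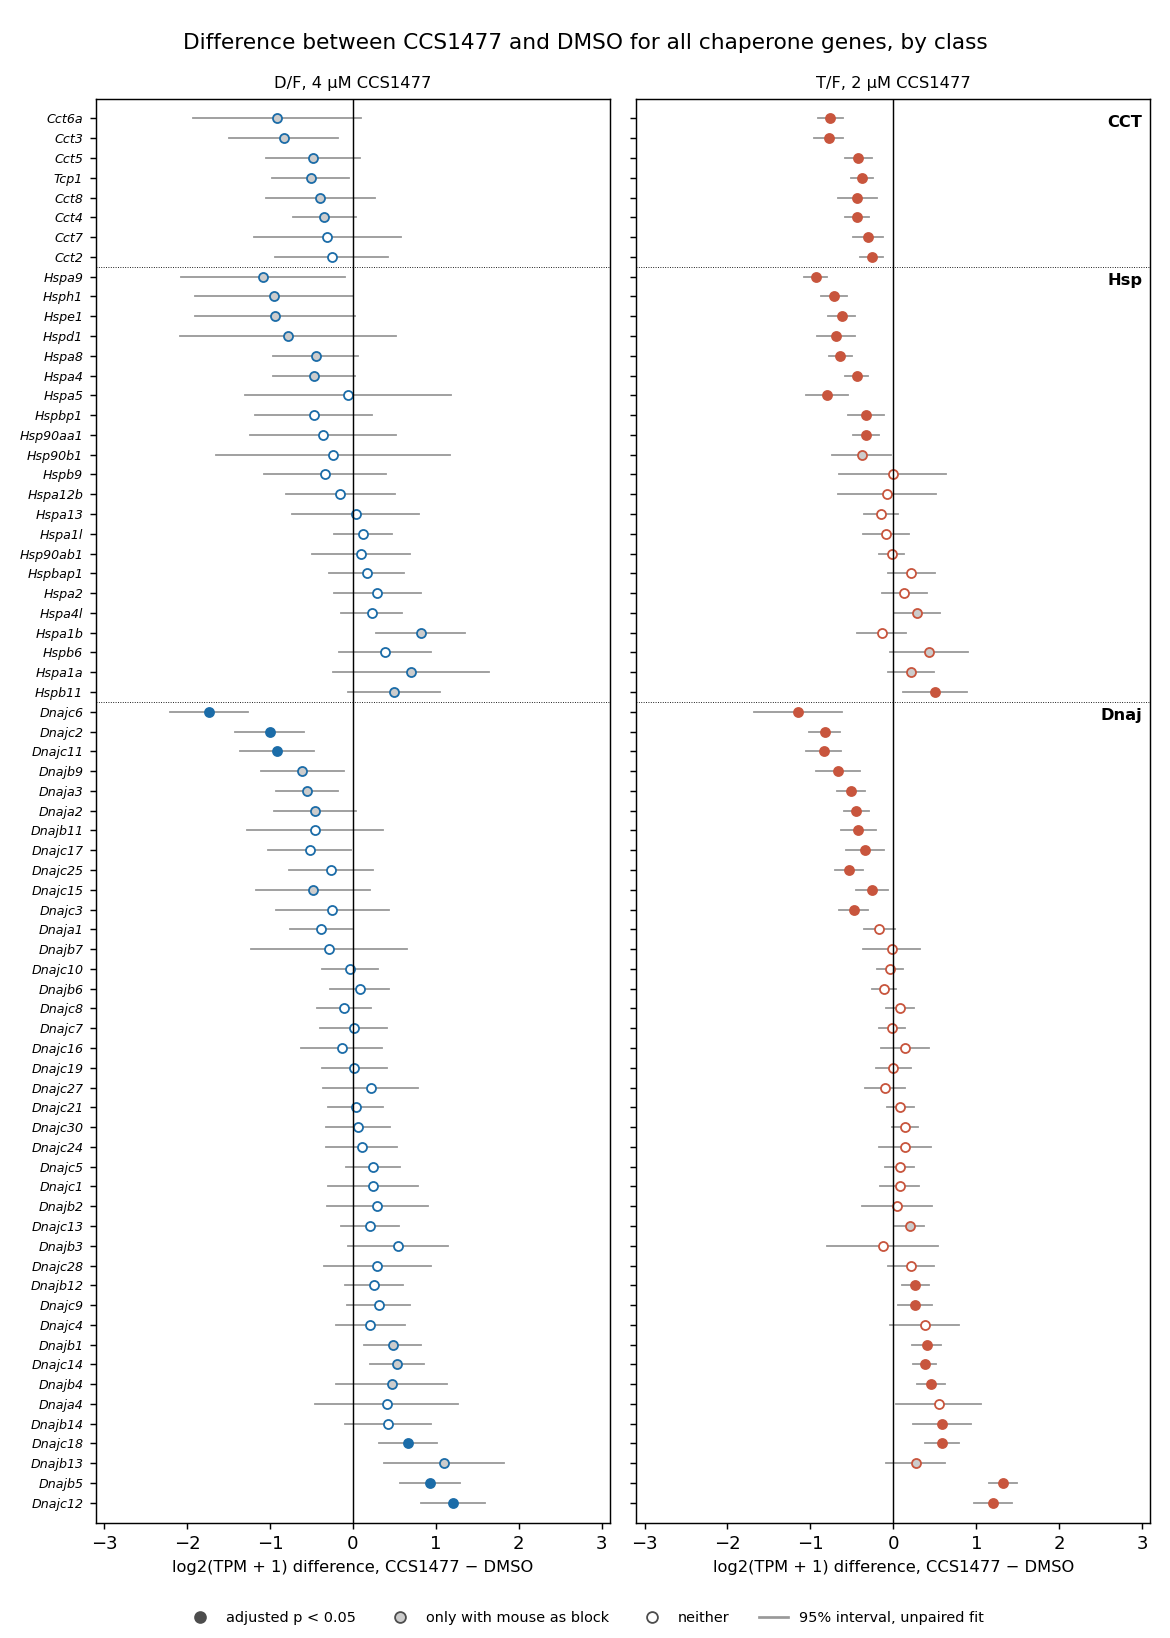
Difference between CCS1477 and DMSO on the log2(TPM + 1) scale (x axis) for the 71 chaperones (rows, by class), in *D/F* (left) and *T/F* (right), with 95% intervals from the unpaired fit. All 8 CCT points lie below 0 in both panels, the Hsp and Dnaj points lie on both sides, and the *D/F* intervals are wider than those of *T/F*.

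All 8 CCT subunits fell in *T/F*, where 17.6% of all genes did. All 8 were lower in each of the 6 mice, as were 24.2% of all genes tested. None passed in *D/F* without the block (2 had an unadjusted p under 0.05, as 30.4% of all genes did). With it 6 fell, where 18% of all genes did: *Tcp1*, *Cct3*, *Cct4*, *Cct5*, *Cct6a* and *Cct8*. The median difference of the 8 was -0.44 in *D/F* cells and -0.43 in *T/F* cells, against 0.06 and 0.07 for all genes. *Cct3* and *Cct6a*, the gamma and zeta subunits, had the lowest values, and *Cct2* and *Cct7* were the closest to 0.

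In *D/F* mice 1, 2 and 3 *Cct3* was 238, 212 and 306 TPM with DMSO and 154, 96.7 and 180 TPM with CCS1477. In *T/F* it was 300, 296 and 329 TPM with DMSO and 171, 179 and 187 TPM with CCS1477. Neither genotype showed overlap between its groups. The difference was -0.84 ± 0.28 (SE) in *D/F*, with an adjusted p of 0.0982 by limma and 0.0146 with the block, and -0.78 ± 0.07 in *T/F*, with an adjusted p of 0.000942. *Cct6a* was 397, 246 and 466 TPM with DMSO and 212, 107 and 293 TPM with CCS1477 in *D/F*, where the groups overlapped although each mouse was lower. In *T/F* it was 434, 422 and 420 TPM against 251, 260 and 240 TPM, with no overlap. Its difference was -0.92 ± 0.42 in *D/F* cells (limma adjusted p = 0.198, and 0.0125 with the block) and -0.76 ± 0.06 in *T/F* cells (adjusted p = 0.000658).

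*Tcp1*, the subunit that gave the complex its name and on average the most abundant of the 8, was 477, 391 and 511 TPM with DMSO and 317, 270 and 383 TPM with CCS1477 in *D/F*. In *T/F* it was 467, 465 and 468 TPM against 350, 361 and 363 TPM. The treated *D/F* and *T/F* libraries all lay below those with DMSO of the same genotype, and the difference was -0.51 ± 0.19 and -0.38 ± 0.05 (limma adjusted p = 0.137, or 0.0182 with the block, and 0.00321). *Cct2* was 392, 267 and 431 TPM against 329, 215 and 372 TPM in *D/F* and 396, 387 and 374 TPM against 320, 321 and 322 TPM in *T/F*. Its difference was -0.26 in both genotypes, with an adjusted p of 0.583 in *D/F* cells (0.0749 with the block) and 0.0132 in *T/F* cells. *Cct4*, *Cct5*, *Cct7* and *Cct8* lay between these, from -0.31 to -0.48 in *D/F* cells and from -0.30 to -0.44 in *T/F* cells. Calls for *Cct2*, *Cct5*, *Cct7*, *Cct8* and *Tcp1* in *T/F* did not hold without *T/F* mouse 1 or without mouse 2, where their adjusted p lay between 0.0503 and 0.137, and that for *Cct7* did not hold without mouse 3 either (0.0556).

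**Figure D3:**
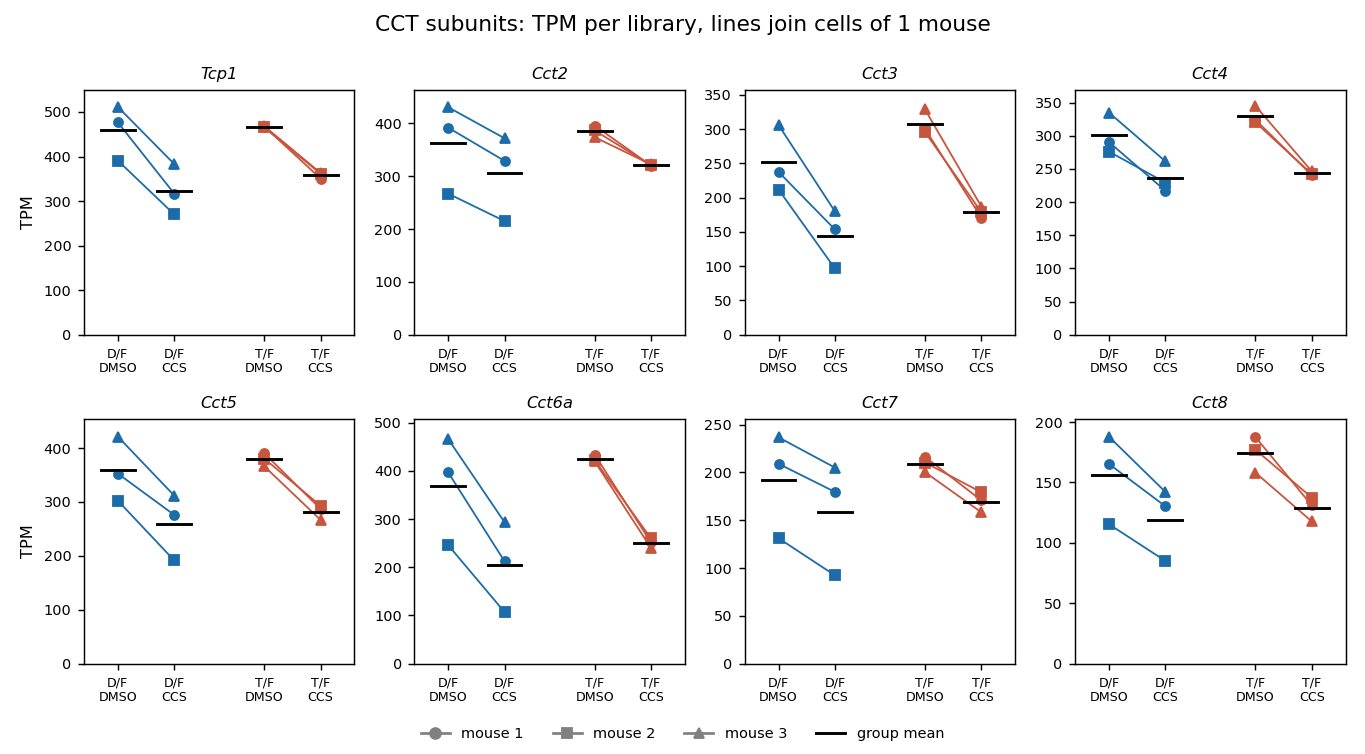
TPM of the 8 CCT subunits (1 panel each, y axes from 0) in the 12 libraries, with lines joining DMSO and CCS1477 cells of 1 mouse and black bars for group means. All lines fall, steepest for *Cct3* and *Cct6a*, and the 3 *T/F* mice lie close together while *D/F* mouse 2 (squares) is lowest in nearly every panel.

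The subunits stand in equal numbers in the finished ring, but their RNA did not move in equal measure. *Cct3* made up 10.3 ± 0.780% of the CCT sum with DMSO and 8.12 ± 0.529% with CCS1477 in *D/F*, where in *T/F* it made up 11.5 ± 0.731% and 9.26 ± 0.506% (SD, n = 3). *Cct6a* went from 14.8 ± 1.89% to 11.2 ± 2.70% in *D/F* cells and from 15.9 ± 0.095% to 13.0 ± 0.299% in *T/F* cells. *Cct2* went the other way, from 14.7 ± 0.907% to 17.4 ± 0.710% and from 14.4 ± 0.292% to 16.6 ± 0.351%. For *Cct2* and *Cct3* the shares of treated and DMSO libraries did not overlap in either genotype, and for *Cct6a* they overlapped in *D/F*. These shares are descriptions and were not tested.

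Promoter windows, 250 bases before to 50 after the annotated start, were taken from RefSeq on GRCm38.p6 and matched 59 of the 71 chaperones. Not matched were *Cct4*, *Dnajc2*, *Dnajc5*, *Dnajc11*, *Dnajc12*, *Dnajc18*, *Dnajc30*, *Hsp90aa1*, *Hsp90ab1*, *Hspa8*, *Hspa9* and *Hspa13*. The windows of both subunits with the lowest values are shown because each holds the CCAAT box (CCAAT, either strand, in capitals) in 2 copies. The *Cct3* window is chr3:88296885-88297184 (+) and the *Cct6a* window is chr5:129787106-129787405 (+).
Cct3: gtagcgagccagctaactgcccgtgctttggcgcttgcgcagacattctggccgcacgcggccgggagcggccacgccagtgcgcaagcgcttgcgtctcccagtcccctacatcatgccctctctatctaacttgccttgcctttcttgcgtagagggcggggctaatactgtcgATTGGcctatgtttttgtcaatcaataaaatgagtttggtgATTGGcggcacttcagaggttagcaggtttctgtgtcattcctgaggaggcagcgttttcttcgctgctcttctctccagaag
Cct6a: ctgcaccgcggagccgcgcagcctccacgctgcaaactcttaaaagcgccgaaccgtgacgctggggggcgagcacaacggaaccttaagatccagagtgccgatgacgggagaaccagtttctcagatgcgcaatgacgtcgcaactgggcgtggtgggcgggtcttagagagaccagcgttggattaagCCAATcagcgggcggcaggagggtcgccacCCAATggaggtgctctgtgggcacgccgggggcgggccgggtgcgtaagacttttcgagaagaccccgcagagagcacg
The box stood in the windows of 4 of the 7 CCT genes with one (*Cct3*, *Cct6a*, *Cct7* and *Tcp1*), in 45.8% of all matched chaperones and in 41.1% of all 27025 genes with a window. It was present both in *Cct3* and in *Cct7*, whose RNA was among the closest to 0.

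The Hsp genes did not all move in 1 direction. In *T/F* 1 rose and 9 fell (4 and 9 with the block), where 25.8% and 17.6% of all genes did (31.2% and 22.9% with the block). In *D/F* none passed without the block (3 had an unadjusted p under 0.05, as did 30.4% of all genes). With it 3 rose and 6 fell, where 21.4% and 18% of all genes did. The Hsp genes that fell in *T/F* were *Hspa8*, *Hspa4*, *Hsph1* and *Hsp90aa1* of the cytosol, *Hspa9*, *Hspd1* and *Hspe1* of the mitochondria, *Hspa5* of the endoplasmic reticulum and the HSP70 partner *Hspbp1*. The one that rose was *Hspb11*. With the block *Hspa1a*, *Hspa4l* and *Hspb6* also rose there, and *Hsp90b1* fell in place of *Hspbp1*.

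In the cytosol, *Hspa8*, the constitutive HSP70 and the most abundant chaperone of the table, was 3271, 2438 and 3761 TPM with DMSO and 2292, 1973 and 2592 TPM with CCS1477 in *D/F*. In *T/F* it was 3355, 3357 and 3356 TPM against 2093, 2197 and 2164 TPM. The *D/F* groups overlapped, through mouse 2 with DMSO, and the *T/F* groups did not. Its difference was -0.45 ± 0.21 in *D/F* cells (limma adjusted p = 0.212, or 0.0284 with the block) and -0.64 ± 0.06 in *T/F* cells (adjusted p = 0.000801).

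The HSP110 exchange factors split. *Hsph1* was 80.7, 59.2 and 112 TPM against 42.7, 24.9 and 66.2 TPM in *D/F*, and 85.0, 89.6 and 84.5 TPM against 50.6, 54.9 and 51.2 TPM in *T/F*. It was lower in every mouse, with a difference of -0.96 ± 0.40 in *D/F* cells (limma adjusted p = 0.163, and 0.0105 with the block) and of -0.72 ± 0.06 in *T/F* cells (0.000889). *Hspa4* was 174, 159 and 205 TPM against 127, 105 and 160 TPM in *D/F* cells (-0.47, adjusted p = 0.185, and 0.0257 with the block) and fell by 0.44 on the log2 scale in *T/F* cells (adjusted p = 0.00243). Their relative *Hspa4l* was 36.7 to 46.6 TPM with DMSO and 46.7 to 50.2 TPM with CCS1477 in *D/F*, with no overlap, and it rose by 0.25 over both genotypes (adjusted p = 0.0302).

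The HSP90 genes also differed from each other. *Hsp90ab1*, the constitutive cytosolic form, was 1958, 1351 and 2122 TPM with DMSO and 2081, 1504 and 2209 TPM with CCS1477 in *D/F*, and 1929, 1829 and 1769 TPM against 1836, 1824 and 1796 TPM in *T/F*. The groups overlapped in both genotypes, and the difference was 0.10 in *D/F* cells and -0.02 in *T/F* cells, with a 95% interval in *T/F* of -0.17 to 0.13. *Hsp90aa1*, the inducible form, was 1181, 843 and 1470 TPM against 943, 551 and 1320 TPM in *D/F*, and 1256, 1225 and 1147 TPM against 985, 967 and 943 TPM in *T/F*. It was lower in each mouse, and the difference was -0.36 ± 0.37 (limma adjusted p = 0.548, and 0.0807 with the block) and -0.32 ± 0.06 (0.0096, but 0.0844 without *T/F* mouse 1 and 0.0957 without mouse 2).

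8 of the chaperones were listed here as acting in mitochondria, and the list may not be complete. In *T/F* 6 of these 8 fell and none rose: *Hspa9*, *Hspd1*, *Hspe1*, *Dnaja3*, *Dnajc11* and *Dnajc15*. Of all genes, 17.6% fell in *T/F*. In *D/F* *Dnajc11* alone passed without the block, and the same 6 passed with it, where 6.51% and 18% of all genes fell. *Dnajc19*, a J protein of the import motor, was at 0.02 and 0.00 in *D/F* and *T/F*, and *Dnajc30* at 0.06 and 0.14.

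*Hspa9* (mortalin), the HSP70 of the mitochondrial matrix that pulls in and folds imported proteins, was 333, 202 and 371 TPM with DMSO and 161, 78.1 and 205 TPM with CCS1477 in *D/F*. In *T/F* it was 353, 341 and 334 TPM against 177, 182 and 176 TPM. Treated cells of a mouse held 0.474 ± 0.082 of the DMSO level in *D/F* cells and 0.521 ± 0.018 in *T/F* cells (SD, n = 3), the lowest ratio of any Hsp gene in *T/F*. The difference was -1.09 ± 0.41 in *D/F* cells (limma adjusted p = 0.134, or 0.00887 with the block, and 0.0289 without mouse 2) and -0.94 ± 0.06 in *T/F* cells (0.000415).

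HSP60 and its lid HSP10 are encoded head to head. *Hspd1* was 524, 278 and 683 TPM against 333, 128 and 452 TPM in *D/F*, and 592, 593 and 531 TPM against 367, 377 and 318 TPM in *T/F*. *Hspe1* was 276, 177 and 396 TPM against 149, 89.0 and 204 TPM in *D/F*, and 302, 287 and 279 TPM against 187, 197 and 179 TPM in *T/F*. Both were lower in each of the 6 mice, and the *D/F* groups overlapped for both. The differences were -0.79 ± 0.54 and -0.94 ± 0.40 in *D/F* (limma adjusted p = 0.375 and 0.173, with the block 0.0192 and 0.00587), and -0.69 ± 0.09 and -0.62 ± 0.07 in *T/F* (0.00256 and 0.0014).

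3 of the Hsp genes that fell in *T/F* and 1 gene that did not pass have a 3-unit heat shock element in their window, the letters GAANNTTCNNGAA on either strand, which heat shock factors are known to bind. It stood in 4 of the 59 matched chaperones (*Dnajb6*, *Hspd1*, *Hspe1* and *Hsph1*), against 0.662% of all genes. The windows of *Hspe1* at chr1:55087898-55088197 (+), *Hsph1* at chr5:149636287-149636586 (-) and *Dnajb6* at chr5:29735648-29735947 (+) are shown with the element in capitals. *Hspe1* holds 2 overlapping copies, and 285 bases of its window lie in that of *Hspd1*, on the other strand.
Hspe1: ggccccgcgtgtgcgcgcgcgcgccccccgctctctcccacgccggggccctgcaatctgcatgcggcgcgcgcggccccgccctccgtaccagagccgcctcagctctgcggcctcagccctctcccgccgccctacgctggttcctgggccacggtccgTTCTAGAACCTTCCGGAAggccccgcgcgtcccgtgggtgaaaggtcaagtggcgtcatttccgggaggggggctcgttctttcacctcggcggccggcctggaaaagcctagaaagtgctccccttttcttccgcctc
Hsph1: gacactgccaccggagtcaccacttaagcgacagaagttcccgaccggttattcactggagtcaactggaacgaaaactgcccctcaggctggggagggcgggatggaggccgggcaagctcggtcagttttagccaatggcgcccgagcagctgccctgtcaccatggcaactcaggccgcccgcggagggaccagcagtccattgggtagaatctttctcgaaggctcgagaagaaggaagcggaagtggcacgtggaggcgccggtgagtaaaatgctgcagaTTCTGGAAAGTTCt
Dnajb6: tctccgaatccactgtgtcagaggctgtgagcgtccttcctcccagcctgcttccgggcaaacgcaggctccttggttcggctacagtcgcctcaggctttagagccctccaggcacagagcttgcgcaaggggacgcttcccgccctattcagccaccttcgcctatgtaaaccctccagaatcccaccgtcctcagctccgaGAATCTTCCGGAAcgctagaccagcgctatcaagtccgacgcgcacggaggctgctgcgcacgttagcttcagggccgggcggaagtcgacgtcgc
The element ended 72 bases before the start in *Hspe1* and 34 bases before it in *Dnajb6*, and in *Hsph1* it began 36 bases after it. *Dnajb6*, which keeps aggregation-prone proteins soluble, was 155, 175 and 158 TPM against 158, 189 and 171 TPM in *D/F* and 167, 171 and 168 TPM against 157, 150 and 160 TPM in *T/F*. Its difference was 0.08 and -0.12 (limma adjusted p = 0.758 and 0.157). The same element was thus present in genes at -0.96 and at 0.08. The shorter 2-unit form, GAANNTTC or its tail-to-tail form, stood in 15 of the 59 and in 17% of all genes, and every 3-unit match also holds it.

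*Hspa1a* and *Hspa1b*, the inducible HSP70 genes that heat turns on most, stayed low. *Hspa1b* was 3.03, 2.45 and 4.66 TPM with DMSO and 6.30, 7.47 and 5.93 TPM with CCS1477 in *D/F*, with no overlap, and 5.56, 4.62 and 4.08 TPM against 4.22, 4.61 and 3.75 TPM in *T/F*, where the groups overlapped. Each *D/F* mouse was higher and each *T/F* mouse lower. The difference was 0.82 ± 0.22 in *D/F* cells (limma adjusted p = 0.0622, and 0.0468 with the block) and -0.14 ± 0.12 in *T/F* cells (0.371), and the difference between the genotypes was -0.96 (unadjusted p = 0.00355, limma adjusted p = 0.988). *Hspa1a* was 0.582, 1.77 and 1.20 TPM against 1.10, 4.57 and 2.57 TPM in *D/F*, and 1.29, 0.877 and 1.01 TPM against 1.64, 1.17 and 1.35 TPM in *T/F*. It was higher in all 6 mice and passed in both genotypes with the block (adjusted p = 0.026 and 0.0249) and in neither without it. These 2 genes lie 12918 bases apart on chromosome 17, 63.8% of the 31-base words in *Hspa1a* transcripts also occur in *Hspa1b*, and their windows differ at 4 of 300 bases, so the split of reads between them is uncertain.

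The same count of 31-base words, the length in which kallisto by default compares reads with transcripts, was made for each chaperone against all other annotated transcripts. Shared words were 51.5% for *Hsp90aa1*, 50.1% for *Hspd1*, 44.8% for *Hspa8* and 30.5% for *Hspe1*, mostly with processed pseudogenes. They were 17.9% or lower for all 8 CCT genes. *Hspa1l*, a testis form, shared 71.7% and was 1.73 to 2.93 TPM throughout.

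**Figure D4:**
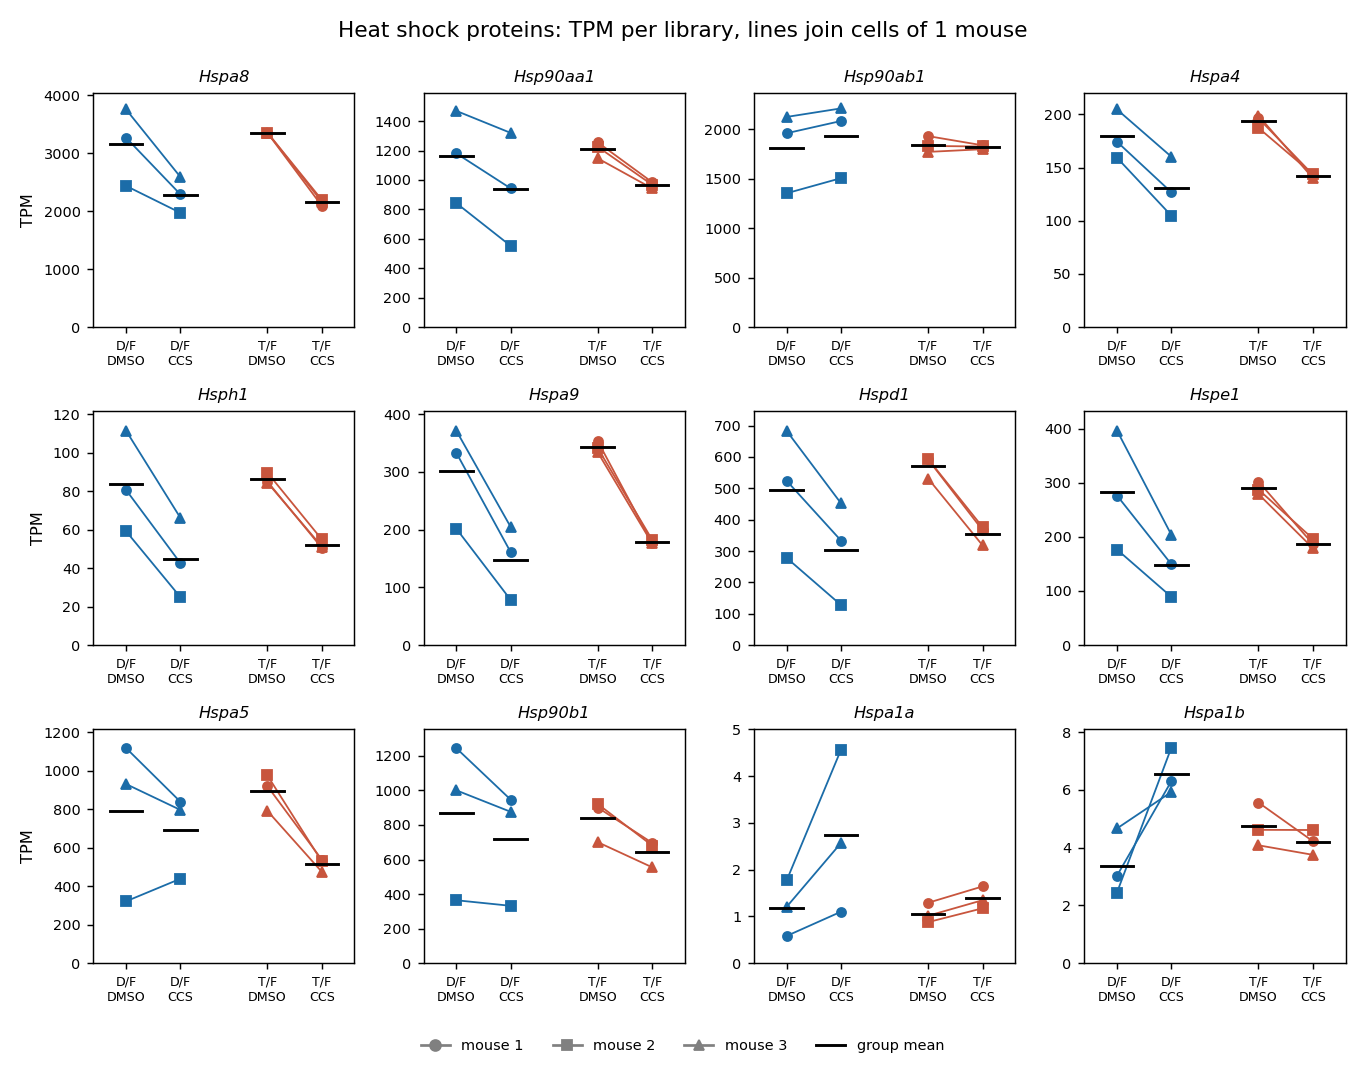
TPM of 12 heat shock protein genes (1 panel each, y axes from 0) in the 12 libraries, with lines joining DMSO and CCS1477 cells of 1 mouse and black bars for group means. *Hspa8*, *Hsph1*, *Hspa9*, *Hspd1* and *Hspe1* fall in every mouse and *Hsp90ab1* shows no common direction, while *Hspa5* falls in 5 mice and rises in *D/F* mouse 2 (squares), and *Hspa1b* is higher in the 3 treated *D/F* libraries.

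The other HSP70 and small heat shock genes were at low level. *Hspb11*, a ciliary transport protein despite its name, rose in *T/F* from 18.7, 25.5 and 27.1 TPM to 32.6, 30.9 and 37.8 TPM (0.50 ± 0.16, limma adjusted p = 0.0462), and was 0.49 in *D/F*. *Hspb6* was 9.75 to 15.7 TPM with DMSO and 13.8 to 20.4 TPM with CCS1477 in *D/F* and rose by 0.41 over both genotypes (adjusted p = 0.0399). *Hspa2*, *Hspa12b*, *Hspa13*, *Hspb9* and *Hspbap1* passed in neither genotype. *Hspbp1*, an HSP70 exchange factor and no chaperone itself, fell by 0.33 in *T/F* (adjusted p = 0.0266, but 0.0525 with the block).

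12 of the chaperones were listed here as acting in the endoplasmic reticulum (ER), where proteins fold after import. The list may not be complete. It leaves out *Dnajc18*, given below as a J protein of the ER membrane, which rose in both genotypes. In *T/F* 5 of the 12 fell (*Hspa5*, *Dnajb9*, *Dnajb11*, *Dnajc3* and *Dnajc25*), where 17.6% of all genes did. Another 2 rose (*Dnajb12* and *Dnajb14*, both J proteins of the ER membrane), where 25.8% of all genes did. In *D/F* none of the 12 passed without the block (1 had an unadjusted p under 0.05, as did 30.4% of all genes). With the block *Dnajb9* alone of the 12 passed, where 39.3% of all genes did.

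*Hspa5* (BiP), the HSP70 of the ER, was 921, 976 and 792 TPM with DMSO and 538, 529 and 475 TPM with CCS1477 in *T/F*, a fall of 0.80 on the log2 scale (SE 0.10, limma adjusted p = 0.00231). In *D/F* it was 1120, 321 and 932 TPM against 840, 439 and 797 TPM. Mouse 2 thus began far below mice 1 and 3 and was higher with CCS1477, where the other 5 mice of the study were lower. The *D/F* difference was -0.06 ± 0.52 (adjusted p = 0.948), and without mouse 2 it was -0.32 (adjusted p = 0.163). Over both genotypes it was -0.43 (0.264) with all mice and -0.61 (0.00134) without *D/F* mouse 2.

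*Hsp90b1* (GRP94), the HSP90 of the ER, was 1245, 364 and 1001 TPM against 946, 332 and 876 TPM in *D/F* and 901, 921 and 700 TPM against 697, 681 and 555 TPM in *T/F*. It was lower in all 6 mice, and the *T/F* difference was -0.38 ± 0.15 (limma adjusted p = 0.0817, 0.00762 with the block and 0.0248 without *T/F* mouse 3). *Dnajc3*, which binds unfolded clients in the ER lumen, was 75.0, 36.7 and 63.7 TPM against 51.5, 40.8 and 49.3 TPM in *D/F* and 64.0, 63.5 and 56.6 TPM against 44.4, 42.6 and 44.1 TPM in *T/F*. As with *Hspa5*, *D/F* mouse 2 began lowest and was the sole mouse to be higher with the drug. It fell by 0.48 on the log2 scale in *T/F* (adjusted p = 0.00388, but 0.0506 without mouse 1 and 0.0616 without mouse 2).

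These 3 genes are the chaperones whose windows hold the ER stress response element, CCAAT and CCACG 9 bases apart on either strand, which ATF6 is known to use with NF-Y. It stood in 3 of the 59 and in 0.137% of all genes with a window. The *Hspa5* window is chr2:34771840-34772139 (+), that of *Hsp90b1* is chr10:86705395-86705694 (-) and that of *Dnajc3* is chr14:118937682-118937981 (+), and the element is in capitals. *Hsp90b1* holds it in 2 copies, on opposite strands.
Hspa5: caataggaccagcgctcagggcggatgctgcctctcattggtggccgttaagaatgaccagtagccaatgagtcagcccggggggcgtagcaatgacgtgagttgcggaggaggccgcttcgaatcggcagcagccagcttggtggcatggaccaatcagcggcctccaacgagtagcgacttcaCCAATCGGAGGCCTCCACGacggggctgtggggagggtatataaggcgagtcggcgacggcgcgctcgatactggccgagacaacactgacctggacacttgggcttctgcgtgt
Hsp90b1: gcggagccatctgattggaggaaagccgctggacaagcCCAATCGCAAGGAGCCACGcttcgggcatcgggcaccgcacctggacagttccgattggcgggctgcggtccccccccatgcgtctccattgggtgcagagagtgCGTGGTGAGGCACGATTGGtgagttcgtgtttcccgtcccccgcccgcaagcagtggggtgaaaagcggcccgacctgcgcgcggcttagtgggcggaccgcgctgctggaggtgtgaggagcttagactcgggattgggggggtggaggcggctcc
Dnajc3: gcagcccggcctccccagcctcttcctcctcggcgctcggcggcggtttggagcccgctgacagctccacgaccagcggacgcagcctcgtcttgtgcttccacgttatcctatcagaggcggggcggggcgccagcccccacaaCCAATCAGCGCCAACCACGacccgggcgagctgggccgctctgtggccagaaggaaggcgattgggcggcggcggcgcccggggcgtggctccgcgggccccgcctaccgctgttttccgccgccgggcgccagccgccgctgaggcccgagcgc
Of the other ER chaperones, *Dnajb9*, which helps BiP hold the stress sensor IRE1 silent, was 42.3, 29.1 and 28.9 TPM against 22.7, 23.0 and 18.2 TPM in *D/F*, and 28.9, 26.8 and 27.3 TPM against 19.1, 14.6 and 17.7 TPM in *T/F*. Neither genotype showed overlap between its groups. Its difference was -0.61 ± 0.21 (limma adjusted p = 0.105, or 0.0313 with the block) and -0.67 ± 0.11 (0.00464). *Dnajb11*, a cochaperone of BiP, was 106, 51.7 and 107 TPM against 65.0, 45.8 and 75.1 TPM in *D/F*, and its difference was -0.46 with an adjusted p of 0.41 (0.0385 at -0.60 without mouse 2), against -0.42 in *T/F* (0.0102, but 0.0901 without *T/F* mouse 1 and 0.107 without mouse 2). *Dnajc10*, a reductase of the lumen, was 65.7 to 81.0 TPM in all 12 libraries.

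The 41 Dnaj genes moved both ways, with medians of 0.08 in *D/F* cells and 0.07 in *T/F* cells close to those of all genes (0.06 and 0.07). In *T/F* 9 rose and 11 fell, where 25.8% and 17.6% of all genes did. In *D/F* 3 rose (*Dnajb5*, *Dnajc12* and *Dnajc18*) and 3 fell (*Dnajc2*, *Dnajc6* and *Dnajc11*), where 5.14% and 6.51% of all genes did. With the block 7 rose and 7 fell there (21.4% and 18% of all genes). The 6 that passed in *D/F* also passed in *T/F* in the same direction, as did 90.8% of all genes called in *D/F* (10.7% of all genes tested in both). The *D/F* calls did not hold without mouse 1 or without mouse 3, where their adjusted p lay between 0.126 and 0.319.

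2 Dnaj genes passed 2-fold on the log2(TPM + 1) scale in both genotypes, and the share of all genes that did so in both was not counted. In each genotype alone, 3 of the 71 chaperones passed that limit in either direction at an adjusted p under 0.05. Of all genes, 7.28% did so in *D/F* cells and 7.33% in *T/F* cells. *Dnajc6* (auxilin), which recruits HSP70 to strip clathrin from vesicles, was 52.8, 75.4 and 50.1 TPM with DMSO and 15.8, 18.1 and 16.8 TPM with CCS1477 in *D/F*. In *T/F* it was 42.8, 30.6 and 48.4 TPM against 17.4, 14.2 and 21.5 TPM. The groups lay far apart in both genotypes, and it fell by 1.74 ± 0.20 on the log2 scale in *D/F* cells (limma adjusted p = 0.00792) and by 1.15 ± 0.22 in *T/F* cells (0.00809, but 0.0786 without mouse 1). *Gak*, the other auxilin and no member by name, was 104 to 116 TPM in all libraries, with differences of 0.05 and 0.03.

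*Dnajc12*, a small J protein known to work with the aromatic amino acid hydroxylases, was 5.95, 4.83 and 5.39 TPM against 13.9, 15.4 and 11.9 TPM in *D/F*, and 5.26, 4.14 and 4.25 TPM against 11.4, 12.2 and 11.6 TPM in *T/F*. The groups did not overlap, and it rose by 1.20 in both genotypes (SE 0.16 and 0.09, limma adjusted p = 0.0109 and 0.000626). *Dnajb5*, a cytosolic relative of *Dnajb1*, was 3.26, 2.63 and 2.69 TPM against 6.94, 5.86 and 6.20 TPM in *D/F*, and 2.29, 2.58 and 2.55 TPM against 7.51, 7.44 and 8.04 TPM in *T/F*. It rose by 0.93 ± 0.15 (adjusted p = 0.0178) and 1.32 ± 0.07 (0.000334). These are among the lowest levels of the class, where log2(TPM + 1) understates a change: the ratio within a mouse was 2.22 ± 0.086 in *D/F* cells and 3.11 ± 0.203 in *T/F* cells (SD, n = 3).

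*Dnajc18*, a J protein of the ER membrane, rose from 7.28, 7.77 and 7.25 TPM to 11.5, 14.0 and 11.6 TPM in *D/F* and from 6.99, 7.25 and 8.18 TPM to 11.0, 11.6 and 12.5 TPM in *T/F* (0.66 ± 0.15 and 0.58 ± 0.08, limma adjusted p = 0.0373 and 0.00322, and 0.0545 in *T/F* without mouse 2). *Dnajb1*, the main partner of inducible HSP70, was 48.0, 45.8 and 41.9 TPM against 67.1, 59.1 and 64.4 TPM in *D/F*, and 38.4, 41.7 and 43.3 TPM against 55.3, 56.4 and 52.5 TPM in *T/F*. There was no overlap in either genotype. The difference was 0.48 ± 0.14 (adjusted p = 0.0766, 0.0243 with the block and 0.0465 without *D/F* mouse 2) and 0.40 ± 0.07 (0.00651, but 0.07 without *T/F* mouse 1 and 0.0758 without mouse 2).

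Of the 41 Dnaj genes, 10 were lower and 12 higher in all 6 mice, where 24.2% and 31.8% of all genes tested were. Among the 10 were *Dnajc6* and *Dnajb9* above and *Dnajc2*, *Dnajc11* and *Dnaja3*. *Dnajc2*, which sits on the ribosome and helps fold new chains, was 91.0, 88.6 and 96.9 TPM against 44.3, 38.8 and 54.7 TPM in *D/F*, and 103, 94.7 and 99.4 TPM against 55.6, 51.7 and 59.0 TPM in *T/F*. It fell by 1.00 ± 0.17 (limma adjusted p = 0.0204) and 0.83 ± 0.08 (0.000891). *Dnajc11*, a mitochondrial protein, was 104, 96.4 and 129 TPM against 49.5, 57.8 and 65.5 TPM in *D/F*, and 119, 99.5 and 113 TPM against 62.2, 58.9 and 62.7 TPM in *T/F*. It fell by 0.92 ± 0.19 (0.0306) and 0.84 ± 0.09 (0.00119). *Dnaja3*, a mitochondrial partner of *Hspa9*, was 44.4 to 55.7 TPM with DMSO and 31.7 to 36.8 TPM with CCS1477 over both genotypes, with a difference of -0.56 (0.0672, 0.0145 with the block and 0.0341 without mouse 2) and -0.51 (0.00259).

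**Figure D5:**
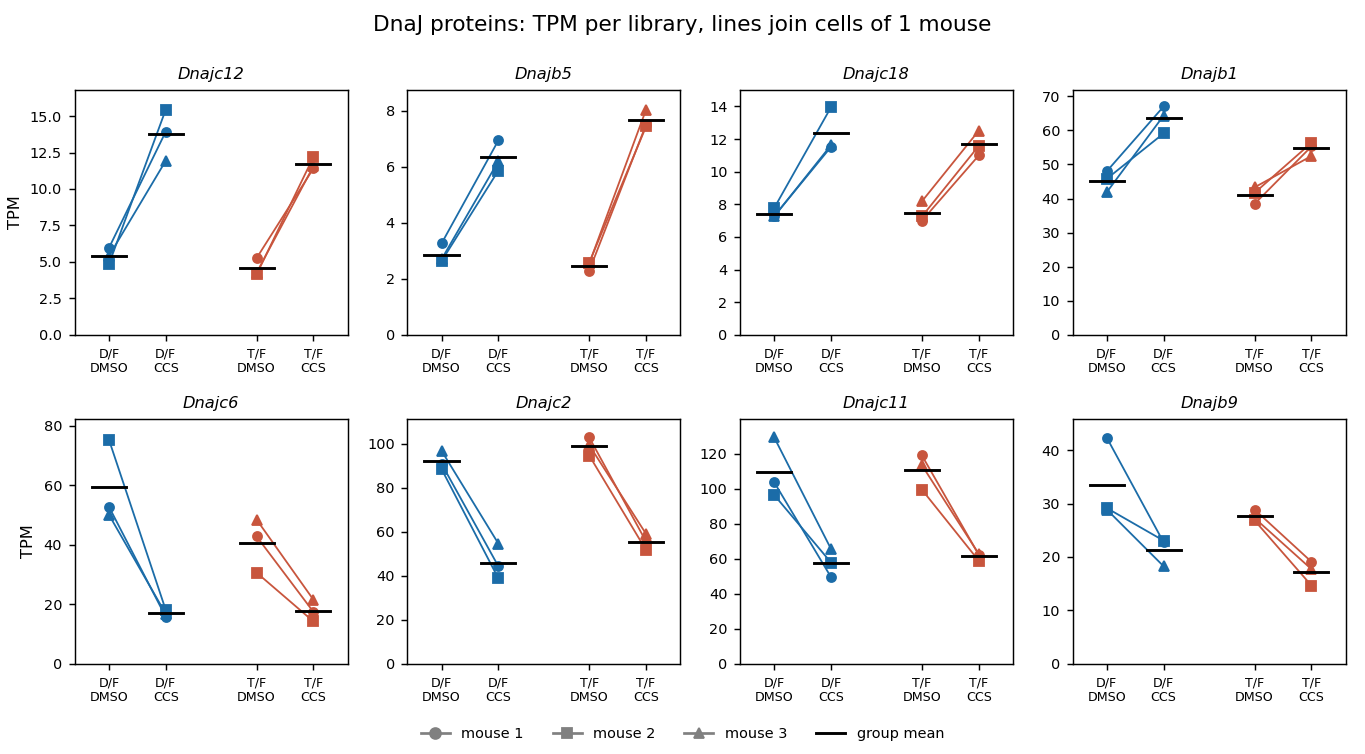
TPM of 8 Dnaj genes (1 panel each, y axes from 0) in the 12 libraries, with lines joining DMSO and CCS1477 cells of 1 mouse and black bars for group means. The 4 genes of the upper row rise in all 6 mice and the 4 of the lower row fall in all 6, with no overlap between treated and DMSO libraries of a genotype.

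Several of the more abundant Dnaj genes encode partners of cytosolic HSP70. *Dnaja1* was 201, 183 and 220 TPM against 138, 161 and 165 TPM in *D/F*, and 170, 181 and 190 TPM against 159, 153 and 169 TPM in *T/F*, lower in each mouse, with differences of -0.38 and -0.17 (limma adjusted p = 0.159 and 0.118) and a fall of 0.27 over both genotypes (0.0162, but 0.0564 without *D/F* mouse 1 and 0.053 without *T/F* mouse 2). *Dnaja2* was 99.9, 83.9 and 118 TPM against 72.3, 60.5 and 86.3 TPM in *D/F*, and it fell by 0.45 in *T/F* (0.00274). *Dnajc7*, which links HSP70 to HSP90, was 173 to 221 TPM in all libraries with differences of 0.01 and -0.02, and its sign changed with the scaling. *Dnajc8*, a protein of the spliceosome, was 123 to 149 TPM.

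*Dnajb13*, a protein of the cilia, was 14.2, 11.7 and 6.47 TPM against 24.7, 27.0 and 18.5 TPM in *D/F*, and 7.99, 10.4 and 8.82 TPM against 10.2, 13.4 and 9.95 TPM in *T/F*. It was higher in each mouse, by 1.09 and 0.27 (limma adjusted p = 0.0639 and 0.183, with the block 0.0112 and 0.028), and 10% of its 31-base words are shared, nearly all with *Ucp2*. *Dnajb4*, *Dnajc9*, *Dnajb12*, *Dnajb14* and *Dnajc14* rose in *T/F* by 0.26 to 0.59, and *Dnajc15* and *Dnajc17* fell there by 0.25 and 0.34.

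No chaperone passed the test of a difference between the responses of the 2 genotypes. Of the 71, 0 passed (limma, adjusted over 15583 genes, of which 0 passed with or without the block), and 3 had an unadjusted p under 0.05 (4.23% of all genes did): *Hspa1b*, *Dnajb13* and *Dnajb5*. With the block 8 did, and 14.7% of all genes did. The difference for *Dnajb5* was 0.39 (95% interval 0.08 to 0.71, unadjusted p = 0.0198) and for *Dnajb13* -0.83 (0.0414). For *Hspa5* the interval ran from -2.02 to 0.55 (-1.29 to -0.17 with the block, adjusted p = 0.263) and for *Cct3* from -0.61 to 0.72 (-0.30 to 0.41 with the block).

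In DMSO, 0 chaperones passed the comparison of *T/F* with *D/F* (limma, 5 of 15265 genes passed, 0.0328%), and 3 had an unadjusted p under 0.05, as did 6.15% of all genes. These were *Dnajb3* at 0.95, *Hspa2* and *Dnajc16*. The class sums of the *T/F* libraries lay within the range of those of *D/F*.

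13 genes were listed here as textbook heat-inducible targets of HSF1, and 11 were in the table. The list includes *Hspa8* and *Hsp90ab1*, described above as constitutive. In *T/F* 1 rose (*Dnajb1*) and 5 fell (*Hspa8*, *Hsph1*, *Hsp90aa1*, *Hspd1* and *Hspe1*), where 25.8% and 17.6% of all genes did. With the block 3 rose there (*Hspa1a* and *Hspa4l* beside *Dnajb1*) and 5 fell (31.2% and 22.9% of all genes). In *D/F* with the block 3 rose (*Hspa1a*, *Hspa1b* and *Dnajb1*) and 4 fell (*Hspa8*, *Hsph1*, *Hspd1* and *Hspe1*), where 21.4% and 18% of all genes did. None passed in *D/F* without it (4 had an unadjusted p under 0.05, as did 30.4% of all genes).

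The regulators and helpers of the chaperones, which are no members by name, also moved both ways. Of 3 genes for heat shock factors and their inhibitor, *Hsf1*, the master factor, fell in *T/F* from 47.3, 42.3 and 49.3 TPM to 32.8, 33.7 and 33.4 TPM (0.46 lower on the log2 scale, limma adjusted p = 0.00508). It was 44.4, 50.3 and 52.1 TPM against 29.4, 35.7 and 35.8 TPM in *D/F* (-0.53, adjusted p = 0.0767, and 0.0149 with the block). *Hsf2* and *Hsbp1*, an inhibitor of *Hsf1*, rose in *T/F* by 0.55 and 0.45, and *Hsf2* also rose in *D/F* with the block (0.64, adjusted p = 0.0115, but 0.0525 without it).

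Prefoldin hands clients to CCT, and the phosducin-like proteins, here *Pdcl*, *Pdcl3* and *Txndc9*, are helpers of CCT. In *T/F* 5 of 9 rose (*Pfdn1*, *Pfdn4*, *Vbp1*, *Pdcl* and *Pdcl3*), where 25.8% of all genes did. Another 2 fell, where 17.6% of all genes did (*Pfdn2* and *Txndc9*, the latter at a limma adjusted p of 0.0416 but 0.0536 with the block). In *D/F* none passed without the block (4 had an unadjusted p under 0.05, as did 30.4% of all genes). With it 3 rose and 1 fell, where 21.4% and 18% of all genes did. *Vbp1*, a prefoldin subunit, was 72.0, 67.8 and 76.3 TPM against 106, 101 and 104 TPM in *D/F*, and 77.8, 80.3 and 72.2 TPM against 108, 110 and 98.3 TPM in *T/F*. Every treated library lay above every DMSO library, while all 8 CCT genes were lower in the same mice.

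Of 16 HSP90 cochaperones, 4 rose and 7 fell in *T/F*, and 1 rose and 1 fell in *D/F* (2 and 6 with the block). Beside this and the groups below, 25.8% of all genes rose and 17.6% fell in *T/F*. In *D/F* 5.14% of all genes rose and 6.51% fell (21.4% and 18% with the block). *Ppid*, the cyclophilin of the HSP90 cycle, was 257, 198 and 335 TPM against 112, 92.5 and 141 TPM in *D/F*, and 271, 264 and 270 TPM against 110, 113 and 105 TPM in *T/F*, a fall of 1.17 and 1.29 on the log2 scale (limma adjusted p = 0.0359 and 0.000296). *Unc45a*, a myosin chaperone, rose by 0.74 (0.0402) and 0.40 (0.03). Of 12 HSP70 cochaperones, 2 rose and 6 fell in *T/F* and 1 rose in *D/F* (1 rose and 4 fell with the block). That one, *Stub1* (CHIP), the ubiquitin ligase that marks HSP70 clients, rose by 0.84 in *D/F* cells (0.0185) and 0.55 in *T/F* cells (0.00374). *Bag2*, which blocks *Stub1*, went from 21.2 ± 5.56 to 7.75 ± 3.55 TPM in *D/F* cells (-1.41, adjusted p = 0.0612, and 0.0107 with the block) and fell by 1.27 in *T/F* cells (0.000343). Of 11 other organelle chaperones and proteases, 1 rose and 6 fell in *T/F*. Of 12 tested in *D/F* without the block, only the mitochondrial protease subunit *Clpp* passed, with a fall of 1.19 (0.0351), and with the block *Clpb* rose as well (0.35, 0.0375). None of 4 J proteins with other names passed in either genotype without the block (0 of 4 at an unadjusted p under 0.05 in *D/F* cells and 1 of 4 in *T/F* cells), and with it *Hscb* fell in *T/F* (-0.30, adjusted p = 0.0288).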

How the data were processed

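RNA of 12 libraries (3 *D/F* and 3 *T/F* mice, each with CCS1477 and DMSO for 6 hours) was analysed from 1 table of gene-level TPM as deposited by the authors. The submitters' processing notes name kallisto and mm10, and the paper names AltAnalyze; versions of the annotation were not given in the sources used here. The sample records name both ribosome depletion and an mRNA kit. The values were linear and not pooled. The lowest of the genes' highest values was 2.00 TPM, so low genes had been left out before deposit. The sample records give a nominal depth of 30000000 reads, and since TPM keeps no read numbers, the reads obtained per library are not known from the table. All 12 sample columns were used.

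Symbols came from GENCODE vM21, which matched 15252 of 15651 identifiers. 4 processed pseudogenes were left out (Hspd1-ps3, Hspe1-ps2, Hspe1-ps3 and Hspe1-ps5). The values were moved to log2(TPM + 1) and fitted with limma 3.58.1 (R 4.3.3, eBayes without a trend), keeping a gene if its mean reached 1 TPM in a group compared. P-values were two-sided, with Benjamini-Hochberg adjustment over all genes tested, and calls needed an adjusted p under 0.05 and no minimum fold. Treated and DMSO cells were compared in each genotype alone, over both with genotype as a covariate, and as an interaction. The exact permutation test of 3 libraries against 3 cannot go below p = 0.1, so groups without overlap reach that value at best.

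The sample records tie same-numbered libraries to a single mouse. After subtracting group means, libraries of a mouse correlated at 0.354 to 0.669 across genes, and libraries of different mice at 0.141 or lower, so the numbers pair the libraries. The study's methods name no pairing, and the fit without the mouse was kept as the main one.

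The members and gene lists were chosen with earlier results of these data known. Genes were named by rule: the 8 CCT subunits and 22 core chaperones, the 5 largest rises and 5 largest falls of each class among those called in both genotypes and changed alike in 6 mice at 5 TPM or more, the 3 most abundant of each class, and those past 2-fold in both genotypes. Other chaperones, pathway genes and examples were named after their values were seen. Alternatives covered another pseudocount (0.1), another filter (5 TPM, or none), quantile normalization, rescaling to the median gene, a trend in eBayes, 1 fit of all 4 groups, a 2-fold limit, the mouse as a block and each mouse left out. Promoter windows are from RefSeq (GRCm38.p6), and shared 31-base words were counted in GENCODE vM21 transcripts.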

Additional observations from a re-analysis of the deposited data

Results flagged for a closer look

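2 pseudogene identifiers, which stand outside the 71 chaperones, passed the same test. Hspd1-ps3 fell by 0.84 on the log2 scale in *D/F*, from 1.82 ± 0.588 to 0.564 ± 0.148 TPM (SD, n = 3, limma adjusted p = 0.0415). *Hspd1* itself was lower in the same mice, and 46.5% of its 31-base words also occur in Hspd1-ps3. Hspe1-ps5 rose by 0.60 in *T/F*, from 26.2 ± 4.43 to 40.0 ± 3.88 TPM (adjusted p = 0.0194), while *Hspe1* fell there. The part of shared reads in either value was not tested. Hspe1-ps2 and Hspe1-ps3 did not pass in either genotype.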

How the results depend on the processing

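In *D/F* the mouse as a block gave 29 chaperones (39.3% of all genes), 1 fit of all 4 groups 23 (31.9%) and a 2-fold limit 3 (7.28%), against 6 (11.6%). Quantile normalization gave 9 (18.3% of all genes), of which 6 were higher, against 3 higher of 6. Leaving out a mouse gave 0 to 13 (up to 24.6% of all genes), and 0 without mouse 1 or mouse 3, where no gene of the table passed. In *T/F* the fit of 4 groups gave 15 (24.3% of all genes) and the 2-fold limit 3 (7.33%). Leaving out a mouse gave 20 to 33 there (20.9% to 33.7%), against 38 (43.4%), or 43 with the block (54.1%). Over both genotypes leaving out a mouse gave 27 to 43 (36.3% to 55.4% of all genes), against 34 (45.3%), or 49 with the block (60.3%). The 2-fold limit gave 4 there, and the share of all genes is not given for it. The number without overlap in either genotype and changed alike was 19, where 30.2% of all genes did so, and 19 to 40 with a mouse left out (31.9% to 46.5% of all genes). The counts of chaperones with a different response or called between genotypes stayed at 0 in all fits run. Fits with a mouse left out have 2 mice in that genotype.

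Class medians moved for Hsp in *D/F* (-0.15 with the 5 TPM filter, -0.15 with quantile normalization, -0.13 to -0.040 with a mouse left out) and *T/F* (-0.33 with the 5 TPM filter), for Dnaj in *D/F* (0.16, quantile) and *T/F* (0.024 rescaled, 0.028 to 0.080 with a mouse left out), and for CCT in *D/F* (-0.33, quantile) and *T/F* (-0.48 rescaled, -0.35 quantile). Signs changed for *Dnajb6* over both genotypes (0.11 quantile, and -0.044 to 0.016 with a mouse left out, above 0 without *T/F* mouse 2), *Dnajc7* (*D/F* -0.025 rescaled and -0.021 to 0.038 with a mouse left out, below 0 without mouse 3, *T/F* 0.12 quantile, both 0.15 quantile and -0.020 to 0.0040 with a mouse left out, above 0 without *D/F* mouse 2), *Hsp90ab1* (*T/F* -0.038 to 0.0087 with a mouse left out, above 0 without mouse 1, both -0.0014 rescaled) and *Hspa5* in *D/F* (-0.32 to 0.11 with a mouse left out, above 0 without mouse 1 or mouse 3). The cause was not tested. No scaling moved the median of all genes by over 0.1. Of the 35 named genes, the block turned 18 differences in *D/F*, 2 in *T/F* and 8 over both genotypes into calls and ended none. Over all genes it raised the share called from 11.6% to 39.3% in *D/F*, from 43.4% to 54.1% in *T/F* and from 45.3% to 60.3% over both genotypes. Without read numbers, the counting error of low genes could not be given.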
